A study of Caenorhabditis elegans with 9 samples.

Results

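The genes described here were nearly silent in wild-type *Caenorhabditis elegans* and gave reads in every library of the *hrde-1* mutant. They were chosen by the deposited counts themselves, as genes with at most 5 counts in each of the 3 wild-type libraries and at least 10 counts in each of the 3 *hrde-1* libraries. Of 31106 annotated genes, 58 met these limits, which is 0.321% of the 18064 genes with at most 5 counts in each wild-type library, and 52 were kept. Left out by name were 6 genes, namely WBGene00018648, F55B11.6, *spp-21*, F41G4.7, C38D9.2 and ZC15.3. The families of major sperm proteins, other sperm genes, collagens, histones, C-type lectins and F-box or MATH-domain genes were to be left out as well, and none of their members met the limits. Since wild-type and *hrde-1* values chose the genes, the difference between those 2 genotypes is given as a description without a test. The count limits made no use of the *hrde-2* libraries. The genes left out by name were set with earlier results of these data known, and 2 of those 6 had at least 10 counts in every *hrde-2* library.

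Polyadenylated RNA was sequenced from whole worms of 3 genotypes with 3 libraries each. The wild-type strain was N2, the *hrde-1* mutant was USC661 with the allele tm1200 on chromosome III, and the *hrde-2* mutant was FD53 with the allele qe20 of *hrde-2*, also called *enri-3*, on chromosome V. All animals were 1-day-old adult worms grown at 20 °C for about 68 h after release from arrest at the L1 larval stage, and 50000 animals were pooled in each sample. Each mutant was represented by 1 allele in 1 strain, and each sample mixed germline and soma, so that fewer cells that express a gene cannot be told apart from less RNA per cell.

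HRDE-1 is a nuclear Argonaute protein of the germline. It binds short antisense RNAs that RNA-dependent RNA polymerases make on target transcripts, called 22G-RNAs, and acts with the NRDE proteins and histone methyltransferases to silence matching genes in the nucleus, in part across generations. In the germline such small RNAs are known for keeping transposons, pseudogenes and aberrant transcripts off. HRDE-2 is a germ granule protein that the study examined for its part in choosing which small RNAs HRDE-1 receives. The comparison of the mutants therefore asks which of the genes that appeared without HRDE-1 also appeared without HRDE-2.

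Libraries held between 5801326 and 11884233 counts, of which ribosomal RNA genes took 19.3% to 31.4%. A gene with 10 counts reached 0.827 CPM (counts per 1000000 counts, on library sizes scaled by TMM, the trimmed mean of M-values) in the deepest scaled library and 1.79 CPM in the shallowest, so that the limits stood for different levels in different libraries. The mRNA of *hrde-1* itself was not absent in the *hrde-1* mutant, at 127 ± 17.9 CPM, where wild-type had 286 ± 78.5 CPM (SD, n = 3). Markers of oocytes, intestine, muscle, neurons and hypodermis were present in every library. The sum over 9 intestine markers ran from 48700 to 66800 CPM in wild-type, from 55100 to 92900 CPM in *hrde-1* and from 27900 to 43500 CPM in *hrde-2*, where it was below every other library. In *hrde-2*, 2 of the 9 were called lower against wild-type and 4 of the 9 against *hrde-1* (edgeR quasi-likelihood test, adjusted p under 0.05). For 6 muscle markers the sums overlapped between the genotypes, at 2010 to 3430, 1800 to 4780 and 995 to 2080 CPM in the same order. Of 11 genes of the male soma, *cwp-2*, *cwp-3* and *lov-1* had no count in any library, and the summed level of the 11 was between 0.0859 and 1.60 CPM. The sum over 92 sperm markers was 740, 336 and 305 CPM in wild-type replicates 1, 2 and 3. In the mutants it ran from 679 to 990 CPM for *hrde-1* and from 2130 to 2540 CPM for *hrde-2*. Wild-type replicate 1 thus stood apart from the other wild-type libraries in sperm transcripts, and among the values of the *hrde-1* mutant.

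The count limits drew a line through a continuum. Of the 52 genes, 27 sat on a limit, 16 with exactly 5 counts in a wild-type library and 14 with exactly 10 counts in an *hrde-1* library. Just inside were *basl-1*, with at most 4 counts in wild-type and 10 as its lowest *hrde-1* count, and *drd-50*, with 5 and 11. Just outside were 17 genes with 6 counts in a wild-type library, among them *fer-1*, a sperm membrane fusion gene whose lowest *hrde-1* count was 15, and Y79H2A.4, for which it was 21. Another 17 genes missed the other limit with 9 counts in an *hrde-1* library, among them *kin-5* and *acs-15*. The number of genes depended on wild-type replicate 1, without which 111 genes met the rule, on wild-type replicate 2 (99 genes without it) and on *hrde-1* replicate 3 (80 genes without it).

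Most of the genes coded for protein. The Ensembl annotation listed 46 of them as protein-coding, 4 as pseudogenes (WBGene00235370, WBGene00014769, WBGene00022587 and WBGene00014977), 1 as a small nucleolar RNA (F55A3.8) and 1 as another non-coding RNA (C38D9.13). Protein-coding genes made up 88.5% of the 52, against 39.9% of the 18064 genes with at most 5 counts in each wild-type library. Only 6140 of those 18064 had a count in a mutant library, so that most could not have met the *hrde-1* limit. The share of pseudogenes was 7.7% against 9.77%. Exons summed to a median of 971 bp in the protein-coding genes, against 953 bp in the protein-coding genes silent in wild-type. On chromosome X lay 1 of the 46 protein-coding genes, Y7A5A.10, which is 2.2% against 12.3% of the silent protein-coding genes, while chromosome I held 17.4% against 10.1%. These shares are descriptions of genes chosen by their counts and were not tested.

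In *hrde-1* the largest number of counts came from F16B4.6, which had 1, 4 and 0 counts in the wild-type libraries, 95, 122 and 131 in *hrde-1* and 0, 4 and 4 in *hrde-2*. Its mean level was 12.4 ± 3.30 CPM with HRDE-1 mutated and 0.223 ± 0.193 CPM with HRDE-2 mutated (SD, n = 3). The gene has 4 exons on the plus strand of chromosome V, from 1587206 to 1587936 on the WBcel235 build, as do all coordinates given here. Every *hrde-1* library was far above every *hrde-2* library for this gene. B0250.8, on chromosome V from 20469703 to 20470485, had 4, 5 and 1 counts in wild-type, 116, 85 and 97 in *hrde-1*, and 33, 37 and 32 in *hrde-2*. Here the *hrde-2* libraries fell between the other genotypes without touching either. The pseudogene WBGene00014977 had 2, 2 and 0 counts in wild-type, 96, 50 and 86 in *hrde-1*, and 5, 15 and 29 in *hrde-2*. K09H11.11 had 2, 1 and 0, then 67, 55 and 54, and then 14, 31 and 12 counts in the same order of genotypes. Both were lower in every *hrde-2* library than in any *hrde-1* library.

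Further genes with many *hrde-1* counts were also lower in *hrde-2*. These genes and those of the paragraph above were named for their high *hrde-1* levels, which favoured a lower value in *hrde-2*. Y56A3A.41, on chromosome III from 11892172 to 11893022, gave 42, 54 and 69 counts in *hrde-1* and 9, 7 and 2 in *hrde-2*, with 4, 1 and 2 in wild-type. W04A8.9, on chromosome I from 13853079 to 13853727, gave 47, 44 and 59 counts in *hrde-1* and 5, 6 and 5 in *hrde-2*, with 1, 5 and 1 in wild-type. For these genes *hrde-2* stood nearer to wild-type than to *hrde-1*. C40A11.8, a gene of 1 exon on chromosome II, gave 56, 39 and 46 counts in *hrde-1* and 33, 31 and 39 in *hrde-2*, with 0, 2 and 0 in wild-type. C44B12.6, on chromosome IV, gave 46, 40 and 46 counts in *hrde-1* but 5, 3 and 1 in *hrde-2*, with 2, 1 and 1 in wild-type. The first of these was present in both mutants, and the second had few counts in *hrde-2*. Per kilobase of exon, the highest mean levels in *hrde-1* were 23.0 CPM per kb for F16B4.6, 16.8 for K09H11.11, 16.3 for F55A3.8, 14.9 for B0250.8 and 12.1 for C38D9.13. Over all 52 genes the mean level in *hrde-1* ranged from 1.09 to 12.4 CPM with a median of 1.92 CPM, and the median in wild-type was 0.247 CPM. Replicates of *hrde-1* differed from each other by a median coefficient of variation of 20.9% per gene, from 1.64% to 73.7%, the highest for *cyp-13A8*.

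**Figure D1:**
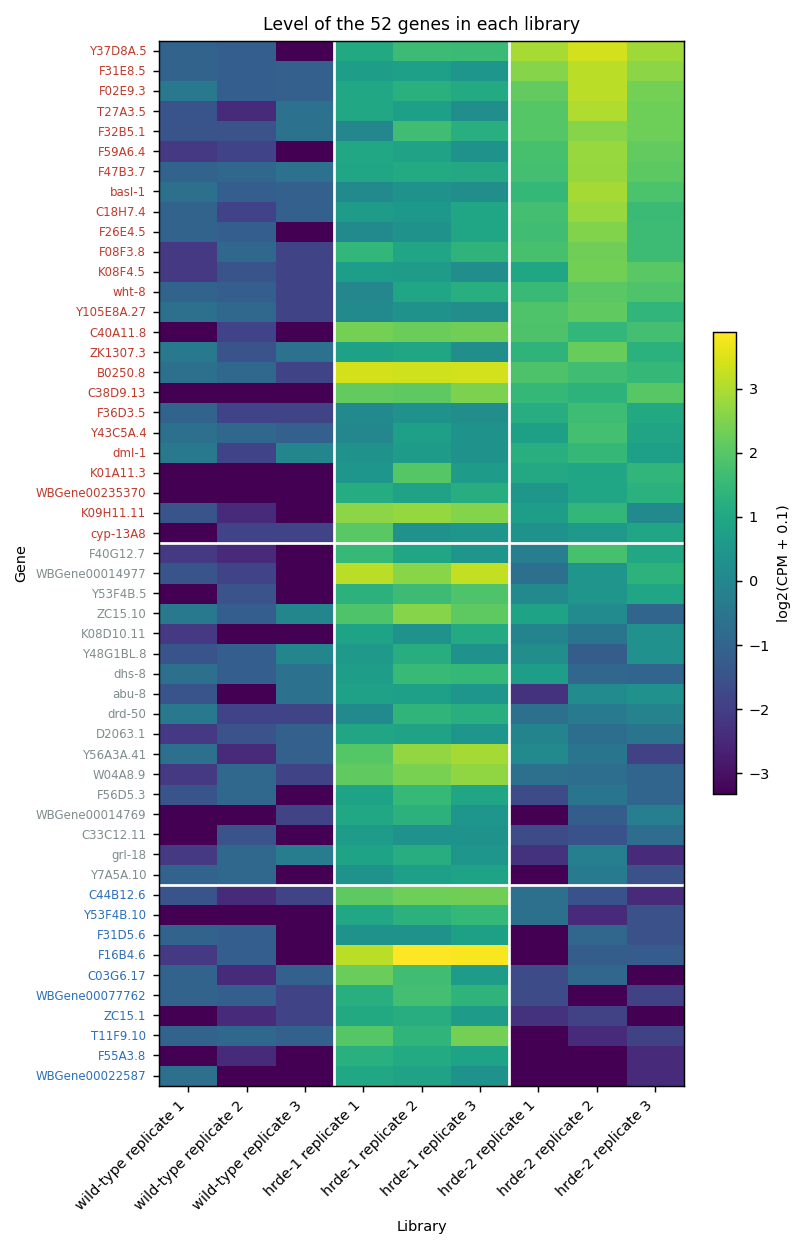
Heat map of log2(CPM + 0.1) for the 52 genes (rows) in the 9 libraries (columns). White lines separate genotypes and, from top to bottom, 25 genes with at least 10 counts in every *hrde-2* library (red names), 17 between the limits (grey) and 10 with at most 5 counts in every *hrde-2* library (blue); F16B4.6, at 12.4 CPM, is the brightest row of the bottom block in *hrde-1* and is dark in *hrde-2*.

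Of the 52 genes, 4 had no count in any wild-type library. C38D9.13, a non-coding RNA gene on chromosome V from 17573576 to 17574048, gave 48, 35 and 50 counts in *hrde-1* and 25, 29 and 47 in *hrde-2*. Against a floor of 3 counts per wild-type library these were at least 12.8-fold and at least 8.37-fold higher. K01A11.3, on chromosome III, gave 14, 32 and 14 counts in *hrde-1* and 18, 21 and 31 in *hrde-2*, at least 5.76-fold and at least 5.8-fold above the floor. The ranges of the mutants overlapped for this gene. The pseudogene WBGene00235370 gave 23, 14 and 20 counts in *hrde-1* and 12, 21 and 28 in *hrde-2*, at least 5.47-fold and at least 5.05-fold above the floor. Y53F4B.10, on chromosome II, gave 21, 20 and 25 counts in *hrde-1*, at least 6.33-fold above the floor, and 5, 1 and 3 in *hrde-2*. It was the only one of the 4 that was at most 5 counts in every *hrde-2* library. Floors and intervals of this kind cover counting error only.

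Few of the genes had a name that refers to a function. *cyp-13A8* belongs to the cytochrome P450 enzymes and gave 0, 2 and 1 counts in wild-type, 44, 10 and 12 in *hrde-1* and 11, 16 and 22 in *hrde-2*. Its *hrde-1* value rested largely on replicate 1, and the mutants overlapped. *dhs-8* belongs to the short-chain dehydrogenases and gave 4, 4 and 3 counts, then 17, 24 and 25, then 14, 5 and 5 in the same order of genotypes. *wht-8*, of the White type of ABC transporters, gave 3, 4 and 1, then 10, 15 and 21, then 26, 48 and 44 counts. The enzyme *dhs-8* was thus lower in *hrde-2* and the transporter *wht-8* higher in *hrde-2* than in any *hrde-1* library. *abu-8*, of a family named for its activation when the unfolded protein response is blocked, gave 2, 0 and 3, then 18, 13 and 12, then 1, 12 and 14 counts. The gene model counted as *abu-8* ran from 5163269 to 5194608 on chromosome V. It spanned other genes, among them *ugt-51* and C03A7.2, without shared exons. *grl-18*, of the ground-like family related to hedgehog proteins, gave 1, 5 and 4, then 19, 18 and 12, then 1, 9 and 1 counts. In CPM *abu-8* and *grl-18* were below the *hrde-1* range in every *hrde-2* library. *drd-50*, of a class named for its decrease under dietary restriction, gave 5, 2 and 1, then 11, 21 and 21, then 5, 8 and 10 counts, and was the 1 gene of the 52 that did not pass the filter on low counts and was not tested. *basl-1* gave 4, 4 and 2, then 11, 10 and 10, then 25, 88 and 42 counts. *dml-1*, which lies on the opposite strand inside the span of *nprt-1*, gave 5, 2 and 5, then 13, 12 and 11, then 21, 32 and 19 counts. Both were higher in every *hrde-2* library than in any *hrde-1* library. The mean level of *nprt-1* was 38.1, 50.8 and 56.5 CPM in the same order of genotypes. Strand was ignored in counting, and the part of *nprt-1* reads in the *dml-1* counts was not tested.

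In *hrde-2* the 52 genes went separate ways. In every *hrde-2* library, 25 had at least 10 counts, 10 had at most 5 counts, and 17 lay between. Of all 18064 genes with at most 5 counts in each wild-type library, 1.44% had at least 10 counts in every *hrde-2* library, and 4.25% of the 6140 of these genes that had a count in a mutant at all. Without 1 *hrde-2* library the number was 26 to 29. For the 25 genes the summed CPM of the wild-type libraries was 8.01, 6.18 and 6.10, that of the *hrde-1* libraries 59.5, 63.4 and 59.9, and that of the *hrde-2* libraries 76.5, 122 and 83.7. For the 10 genes the same sums were 2.5, 1.80 and 1.26 CPM, then 32.6, 37.7 and 36.6 CPM, and then 1.61, 1.77 and 1.41 CPM. For the 10 genes together, *hrde-2* stood within the range of wild-type. For the 17 genes they ranged from 4.04 to 4.84 CPM, from 42.5 to 50.4 CPM and from 10.9 to 14.4 CPM. These 3 groups were formed from the *hrde-2* counts, so that their order in *hrde-2* is a description.

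Among the 25 genes present in both mutants, 18 were higher in all 3 *hrde-2* libraries than in any *hrde-1* library in CPM, 4 were lower (C40A11.8, C38D9.13, B0250.8 and K09H11.11) and 3 overlapped (*cyp-13A8*, K01A11.3 and WBGene00235370). The highest *hrde-2* level per kilobase of exon was that of Y37D8A.5, at 8.26 CPM per kb, on chromosome III from 12854051 to 12855315, with 3, 4 and 0 counts in wild-type, 22, 25 and 27 in *hrde-1* and 70, 123 and 86 in *hrde-2*. F31E8.5, a gene of 11 exons on chromosome II from 6805022 to 6807262, gave 3, 4 and 2, then 17, 13 and 12, then 54, 103 and 73 counts. F02E9.3, on chromosome I, gave 5, 4 and 2, then 21, 19 and 19, then 40, 103 and 61 counts. In each of these genes *hrde-2* replicate 2 was the highest library. T27A3.5, on chromosome I, gave 2, 1 and 3, then 21, 13 and 10, then 36, 95 and 58 counts. F32B5.1, also on chromosome I, gave 2, 3 and 3, then 10, 26 and 21, then 36, 70 and 58 counts. F59A6.4, on chromosome II, gave 1, 2 and 0, then 21, 14 and 11, then 31, 80 and 52 counts. Replicate 2 was again the highest *hrde-2* library for all 3, as it was for 19 of the 25 genes. The sum of the sperm markers was also highest in *hrde-2* replicate 2, at 2540 CPM against 2190 and 2130 CPM. The means of both sums stood in the order wild-type, *hrde-1*, *hrde-2*. For the 25 genes the count limits had placed wild-type below both mutants. Replicate 1 had the highest wild-type value of both sums, where the limit held each of the 25 genes to 5 counts or fewer. In *hrde-1* the 25 genes summed to about the same value in each library, from 59.5 to 63.4 CPM, while the sperm markers ranged from 679 to 990 CPM. Of the 72 sperm markers tested, 61 were called higher in *hrde-2* against wild-type and 7 in *hrde-1* (edgeR quasi-likelihood test, adjusted p under 0.05). The part of sperm content in the level of the 25 genes was not tested.

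Others of the 25 had mean *hrde-2* levels from 2.18 CPM for Y43C5A.4 to 4.61 CPM for F47B3.7. F47B3.7, on chromosome I, gave 3, 5 and 3, then 20, 17 and 18, then 30, 78 and 49 counts. F26E4.5, on the same chromosome, gave 3, 4 and 0, then 11, 10 and 17, then 29, 67 and 36 counts. C18H7.4, on chromosome IV, gave 3, 2 and 2, then 16, 11 and 17, then 30, 80 and 35 counts. In these genes the lowest *hrde-2* library stood above the highest *hrde-1* library, and replicate 2 was again the highest. K08F4.5, on chromosome IV, gave 1, 3 and 1, then 17, 12 and 10, then 17, 59 and 48 counts, and F08F3.8, on chromosome V, gave 1, 5 and 1, then 29, 15 and 23, then 31, 58 and 36 counts. ZK1307.3, on chromosome II, gave 5, 3 and 3, then 18, 15 and 10, then 23, 54 and 28 counts. In CPM the lowest *hrde-2* library of K08F4.5 (replicate 1, 1.82 CPM) stood near its highest *hrde-1* library (1.54 CPM), as did that of F08F3.8 (replicate 3, 2.98 CPM against 2.63 CPM). Y105E8A.27, which lies on the opposite strand inside the span of *catp-1*, gave 4, 5 and 1, then 11, 10 and 10, then 34, 50 and 31 counts. Y43C5A.4 shares 6.2% of its exon bases with *thk-1* on the other strand and gave 4, 5 and 2, then 10, 13 and 11, then 15, 38 and 21 counts. F36D3.5, with 3783 bp of exons the longest of the 52, gave 3, 2 and 1, then 11, 10 and 10, then 20, 36 and 24 counts and had the lowest level per kilobase of the 52 in *hrde-1*, 0.287 CPM per kb.

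Of the 17 genes between the limits, 16 were below the *hrde-1* range in all 3 *hrde-2* libraries and F40G12.7 overlapped it. Y53F4B.5, on chromosome II, gave 0, 3 and 0 counts in wild-type, 26, 25 and 34 in *hrde-1* and 9, 15 and 22 in *hrde-2*, which put *hrde-2* above wild-type and below *hrde-1*. F56D5.3, on chromosome IV, gave 2, 5 and 0, then 19, 23 and 17, then 2, 7 and 5 counts, and D2063.1, on chromosome V, gave 1, 3 and 2, then 20, 14 and 12, then 8, 6 and 7 counts. Y7A5A.10, the gene on chromosome X, gave 3, 5 and 0, then 13, 13 and 16, then 0, 8 and 3 counts. The *hrde-2* counts overlapped those of wild-type in F56D5.3 and Y7A5A.10 and did not in D2063.1. The pseudogene WBGene00014769 gave 0, 0 and 1, then 21, 20 and 12, then 0, 4 and 9 counts. Y48G1BL.8, near the left end of chromosome I, gave 2, 4 and 5, then 15, 18 and 11, then 10, 4 and 14 counts. In raw counts the mutants overlapped for this gene, and in CPM the highest *hrde-2* library (1.16 CPM) was just below the lowest *hrde-1* library (1.17 CPM).

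The 10 genes that stayed at 5 counts or below in every *hrde-2* library were F16B4.6, C44B12.6, Y53F4B.10, F31D5.6, C03G6.17, WBGene00077762, ZC15.1, T11F9.10, F55A3.8 and WBGene00022587. T11F9.10, on chromosome V from 11487152 to 11488275, gave 3, 5 and 2 counts in wild-type, 42, 21 and 48 in *hrde-1*, and 0, 1 and 2 in *hrde-2*. Its level in *hrde-1* was 42.8 times that in *hrde-2* (95% interval from the counts, 14.3 to 211). The gene shares 11.8% of its exon bases with *srh-1* on the same strand, and shared reads were not counted. F55A3.8, the small nucleolar RNA gene of 123 bp on chromosome I, gave 0, 1 and 0 counts in wild-type, 25, 17 and 16 in *hrde-1*, and 0, 0 and 1 in *hrde-2*. The *hrde-1* level was 67.2 times that in *hrde-2* (11.6 to 2700). Such RNAs guide chemical modification of other RNAs. The pseudogene WBGene00022587 gave 4, 0 and 0, then 21, 14 and 11, then 0, 0 and 1 counts, a ratio of *hrde-1* to *hrde-2* of 53.3 (9.09 to 2150). WBGene00077762, a protein-coding gene on chromosome IV, gave 3, 4 and 1, then 24, 27 and 23, then 2, 0 and 2 counts. C03G6.17, on chromosome V, gave 3, 1 and 2, then 51, 26 and 14, then 2, 5 and 0 counts. F31D5.6, on chromosome II, gave 3, 4 and 0, then 13, 10 and 15, then 0, 5 and 3 counts. The limits that formed the group keep the counts of the mutants apart in all 10.

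**Figure D2:**
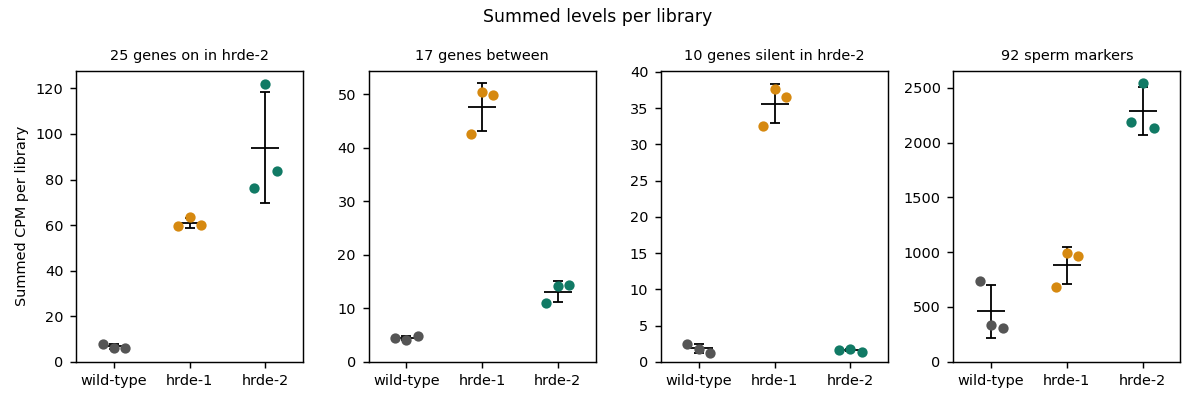
Summed CPM per library for the 25, 17 and 10 genes and for 92 sperm markers, each panel on its own axis from 0. Points are libraries, and the black dash and bars give mean and SD (n = 3); the 25 genes reach 76.5 to 122 CPM in *hrde-2*, the 10 genes 1.41 to 1.77 CPM, and the sperm markers 2130 to 2540 CPM.

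The mutants were compared with each other in a fit across 12141 genes that passed a filter on low counts (edgeR quasi-likelihood test, genotype as the only term, Benjamini-Hochberg adjustment over all genes tested). Of the 51 genes tested among the 52, 6 were called higher in *hrde-2* than in *hrde-1* and 15 were called lower at an adjusted p under 0.05. Over all genes tested the shares called were 3.22% and 2.45%. The rule had fixed the *hrde-1* libraries at 10 counts or more, so that a lower value in *hrde-2* was favoured by the choice of genes. By the same test 4 of 9 intestine markers were lower in *hrde-2* than in *hrde-1*, and 32 of 72 sperm markers were higher and 1 lower. The part of tissue content in these calls was not tested. Called higher were F31E8.5, by 2.22 on the log2 scale (SE 0.36, adjusted p = 0.00564), *basl-1*, by 2.05 (SE 0.48, adjusted p = 0.0286), T27A3.5, by 1.87, Y37D8A.5 and Y105E8A.27, by 1.67 each, and F02E9.3, by 1.54. All 6 were among the genes with at least 10 counts in every *hrde-2* library, and all 6 had their highest level in replicate 2. Without *hrde-2* replicate 2 none of the 52 was called higher than in *hrde-1*, and without wild-type replicate 1, 11 were. Leaving out any other mutant library left 1 or 2.

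Called lower were F16B4.6, at -5.64 on the log2 scale (SE 0.63, adjusted p = 0.000475), T11F9.10, F55A3.8 and WBGene00022587 with the ratios given above (adjusted p = 0.00141, 0.00430 and 0.0204), WBGene00077762, with -4.29 (SE 0.70, adjusted p = 0.00581), C44B12.6, with -4.0 (SE 0.58, adjusted p = 0.00300), and W04A8.9, with -3.41 (SE 0.47, adjusted p = 0.00223). The others were ZC15.1 with a ratio of *hrde-1* to *hrde-2* of 20.8 (6.76 to 104, adjusted p = 0.0107), C03G6.17 (-3.79), Y56A3A.41 (-3.37), Y53F4B.10 (-3.01), WBGene00014977 (-2.47), ZC15.10 (-2.13), K09H11.11 (-1.84) and B0250.8 (-1.74). The last pair were lower than in *hrde-1* and yet had at least 10 counts in every *hrde-2* library. The number called lower was 6 without *hrde-2* replicate 2 and 8 without *hrde-2* replicate 1, *hrde-2* replicate 3 or *hrde-1* replicate 1. F16B4.6, T11F9.10, F55A3.8, WBGene00077762, C44B12.6 and W04A8.9 kept their call under every alternative tried. Counted by libraries, 18 of the 52 were above *hrde-1* in all 3 *hrde-2* libraries and 30 below, against 16.8% and 15.7% of all genes tested. The rule favoured lower values in *hrde-2* for the 52, in these calls and counts alike, but not for all genes tested.

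**Figure D3:**
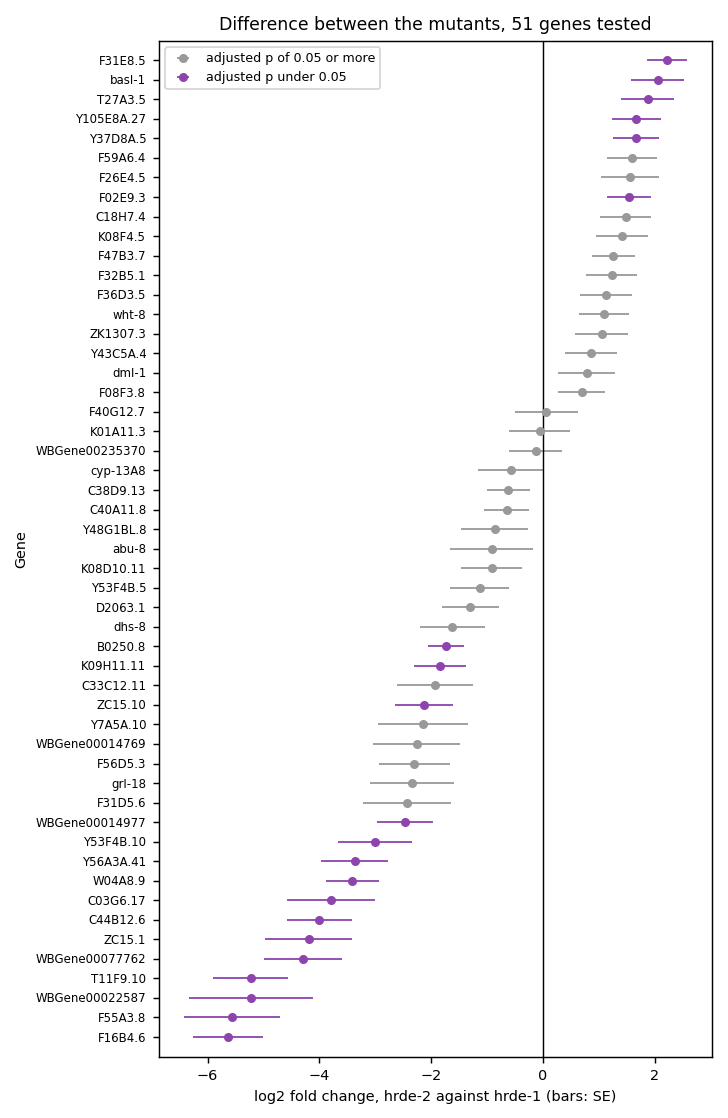
Log2 fold change of *hrde-2* against *hrde-1* (horizontal axis, bars are SE) for the 51 genes tested, sorted. Purple marks the 6 genes called higher (1.54 to 2.22) and the 15 called lower (-5.64 to -1.74), and grey those that did not pass.

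Against wild-type, 29 of the 51 tested genes were called higher in *hrde-2* and 0 lower, and 1, T11F9.10, was lower at an unadjusted p under 0.05 (edgeR quasi-likelihood test); DESeq2 also called 29 higher and 0 lower. Over all genes tested, 7.57% were called higher and 4.25% lower. The wild-type libraries had been held to 5 counts or fewer by the rule, which left little room for a lower value and favoured a higher one. The 29 were the 25 genes with at least 10 counts in every *hrde-2* library and Y53F4B.5, K08D10.11, WBGene00014977 and F40G12.7. Among the 26 of them with a count in wild-type, log2 fold changes ran from 2.02 (SE 0.59, adjusted p = 0.0412) for *dml-1* to 5.2 (SE 0.64, adjusted p = 0.000430) for F59A6.4. Between 25 and 29 were called when any 1 library was left out. Without a filter the median log2 fold change of the 52 genes in *hrde-2* against wild-type was 2.99, and 2.63 with the genes at 0 in wild-type set to their lower bound, against -0.10 over all genes tested, which were not chosen for a low wild-type count. For the 6140 genes with at most 5 counts in each wild-type library and a count in a mutant, the same median was 0.69. F40G12.7, with 1, 1 and 0 counts in wild-type, 30, 15 and 12 in *hrde-1* and 7, 40 and 23 in *hrde-2*, had about the same mean in both mutants, 1.93 ± 0.728 and 2.01 ± 1.31 CPM (SD, n = 3), with overlapping libraries.

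The 52 genes were next looked up in lists that the study made from other libraries. Its lists of genes with HRDE-1-bound small RNAs in wild-type and in *hrde-2* were not used. Genes enriched for HRDE-1-bound small RNAs in *mut-2* mutants, which lack most small RNAs of the class that HRDE-1 usually binds, included 16 of the 52, or 30.8%, against 1.13% of all genes silent in wild-type. Among protein-coding genes the shares were 32.6% and 1.75%. Of the 18064 genes silent in wild-type, only 6140 had a count in a mutant, so that most could not have met the rule. The 16 were W04A8.9, F31D5.6, Y53F4B.5, Y56A3A.41, F56D5.3, WBGene00077762, F16B4.6, F08F3.8, WBGene00022587, K09H11.11, T11F9.10, F40G12.7, ZC15.1, ZC15.10, B0250.8 and Y7A5A.10. They held 3 of the 25 genes present in both mutants, 7 of the 17 between and 6 of the 10 that stayed silent in *hrde-2*. In all 3 *hrde-2* libraries 14 of the 16 were below *hrde-1* and 1, F08F3.8, was above, against 15.7% and 16.8% of all genes tested. Of the 36 genes outside the list, which met the same rule, 16 were below and 17 above. The edgeR test between the mutants called 10 of the 16 lower and 0 higher, and 0 were higher at an unadjusted p under 0.05. Of all 12141 genes in the fit, 2.45% were lower and 3.22% higher. The 10 became 6 without *hrde-1* replicate 1 or *hrde-2* replicate 1, 4 without *hrde-2* replicate 2 and 5 without *hrde-2* replicate 3. The median of their mean levels was 2.81 CPM over the *hrde-1* libraries and 0.446 CPM over those of *hrde-2*. The 36 genes outside the list had medians of 1.69 and 2.17 CPM. Taken gene by gene, the median log2 fold change of *hrde-2* against *hrde-1*, without a filter, was -2.38 for the 16 and -0.1 for the 36. The test called 5 of the 36 lower and 6 higher. Without 1 mutant library these became 2 to 4 lower and 0 to 2 higher, and without wild-type replicate 1 they became 6 and 11. The rule favoured a lower value in *hrde-2* for genes in and outside the list alike. The difference between the genes in and outside the list was not tested. Genes outside the *mut-2* list may be in the lists of the other genotypes, which were not looked up.

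A list of regions with lower H3K9me3 signal in *hrde-1* overlapped another 8 of the 52, or 15.4%, against 4.79% of genes silent in wild-type. Among protein-coding genes the region list overlapped 6 of 46, or 13%, against 6.78%. As above, most of the genes silent in wild-type had no count in a mutant. H3K9me3 is a histone mark of silent chromatin, and since the antibody used by the study also bound other silencing marks, several marks may have been measured. The 8 were F55A3.8, C33C12.11, Y53F4B.10, K01A11.3, C44B12.6, *dml-1*, K08D10.11 and WBGene00235370. They included 3 of the 4 genes without a count in wild-type. No gene was in both lists, and 24 of the 52 were in either. C33C12.11, a gene of 1 exon on chromosome II, gave 0, 3 and 0 counts in wild-type, 16, 10 and 11 in *hrde-1*, and 2, 3 and 6 in *hrde-2*.

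**Figure D4:**
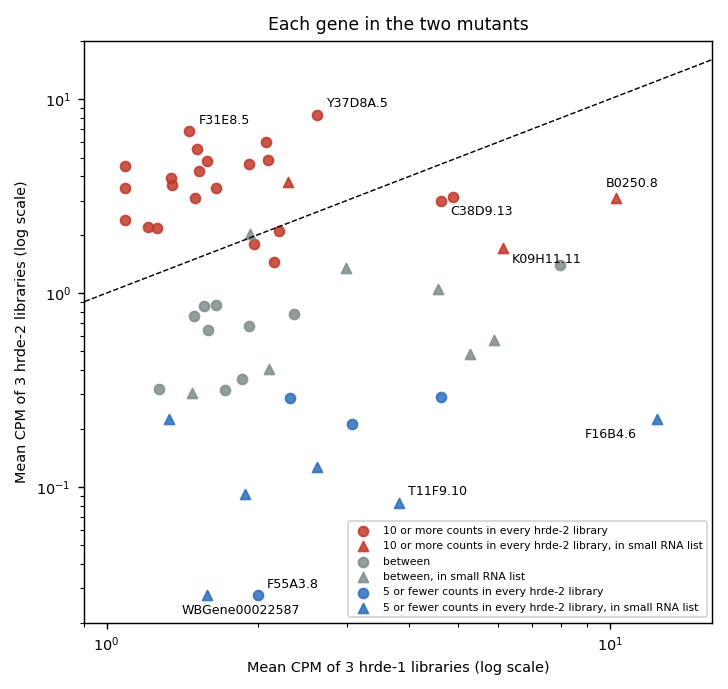
Mean CPM of the 3 *hrde-2* libraries against mean CPM of the 3 *hrde-1* libraries for each of the 52 genes, both axes on a log scale. The dashed line marks equal levels, and colours give the 3 groups by *hrde-2* counts. Triangles are the 16 genes in the list of HRDE-1-bound small RNAs. Of these, 14 were below *hrde-1* in every *hrde-2* library, as were 16 of the 36 genes outside the list. Points near 0.03 CPM rest on 1 count.

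Some of the genes lay next to each other. At the right end of chromosome V, WBGene00014977 (20302135 to 20303443), ZC15.1 (20306103 to 20308919) and ZC15.10 (20310148 to 20311656), all on the plus strand, surrounded ZC15.3, one of the genes left out. ZC15.3, also on the plus strand, ended 1195 bp before ZC15.1. It had 2, 0 and 1 counts in wild-type, 809, 764 and 1069 in *hrde-1*, and 4, 18 and 23 in *hrde-2*. ZC15.1 gave 0, 1 and 1, then 22, 18 and 14, then 1, 2 and 0 counts, and ZC15.10 gave 5, 4 and 5, then 40, 49 and 39, then 16, 12 and 5 counts. All 4 of these genes met the count limits and had lower counts in every *hrde-2* library than in any *hrde-1* library. Other genes nearby differed. ZC15.5 and *clec-262* had at most 1 count in any library. Y113G7C.1 had 0.915, 4.8 and 18.7 CPM in wild-type, *hrde-1* and *hrde-2*, and was called higher in both mutants by the edgeR test. C38D9.13 lay 1973 bp downstream of C38D9.2 on the same strand. C38D9.2, also left out, had 3, 4 and 1 counts in wild-type, 1227, 1137 and 1378 in *hrde-1*, and 1477, 1543 and 1961 in *hrde-2*. The part of reads that run past C38D9.2 or ZC15.3 in the counts of the genes downstream was not tested. At this locus both genes were present in both mutants. K08D10.11 and WBGene00235370 overlapped on opposite strands of chromosome IV between 4185550 and 4186620, and since reads were counted without regard to strand, reads of one may have been counted for the other. K08D10.11 gave 1, 0 and 0 counts in wild-type, 19, 10 and 19 in *hrde-1*, and 8, 7 and 14 in *hrde-2*.

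Within 10 kb of the 52 genes lay 359 other genes, of which 170 passed the filter on low counts. Of the 170, 13 were called higher in *hrde-1* against wild-type and 0 lower (edgeR quasi-likelihood test), or 7.65% higher, against 1.24% of all genes tested. At an unadjusted p under 0.05, 10 were lower. The 13 included C38D9.2 and ZC15.3, which met the count limits themselves, and 11 that did not. In *hrde-2*, 28 of the 170 were called higher, or 16.47% against 7.57%, and 8 lower, and 8 of the 13 were called higher in both mutants. The neighbours named next were picked after their values were seen. On chromosome I, *gpx-8*, of the glutathione peroxidase family, ended 42 bp before F55A3.8 on the same strand in the gene models used for counting, with mean levels of 0.658, 12 and 1.79 CPM in the order wild-type, *hrde-1*, *hrde-2*. The *hrde-1* mutant was higher by 4.18 on the log2 scale (SE 0.36, adjusted p = 3.32e-05). Reads that run past the annotated end of *gpx-8* would fall on F55A3.8, and their part in its counts was not tested. F16B4.5, which lay 612 bp from F16B4.6, had 0.512, 3.49 and 1.56 CPM in the same order, with a log2 fold change of 2.73 in *hrde-1* (adjusted p = 0.0346). Near *dhs-8*, the cysteine synthase-like gene *cysl-2* rose without HRDE-1 from 40.1 to 371 CPM (3.21 on the log2 scale, adjusted p = 0.000186) and stood at 43.7 CPM in *hrde-2*. Near K01A11.3, the sperm gene *spe-41* had 1.72, 7.86 and 12.2 CPM in the 3 genotypes and was called higher in both mutants.

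**Figure D5:**
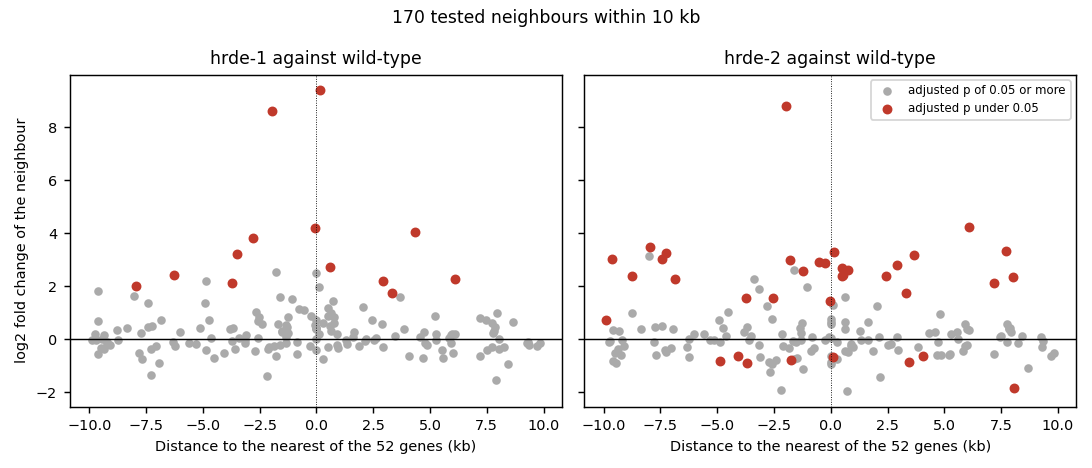
Log2 fold change against wild-type of the 170 tested neighbours (vertical axis) by distance to the nearest of the 52 genes in kb (negative upstream of that gene), in *hrde-1* (left) and *hrde-2* (right). Red points passed an adjusted p under 0.05, which were 13 higher and 0 lower in *hrde-1* and 28 higher and 8 lower in *hrde-2*.

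Few genes of the silencing pathway itself were called in *hrde-1*. Of 26 genes of nuclear RNAi and small RNA production, all tested, 0 were called higher and 1 lower in *hrde-1* against wild-type (edgeR quasi-likelihood test), although 3 were higher before adjustment at p under 0.05. Over all genes tested 1.24% were called higher and 0.313% lower. The gene called lower was *hrde-1* itself, at -1.17 on the log2 scale (SE 0.22, adjusted p = 0.0169). DESeq2 called *simr-1* higher in *hrde-1*, by 0.74 on the log2 scale (SE 0.20, adjusted p = 0.0122). The number called lower was 0 when replicate 2 or 3 of wild-type or replicate 1 or 2 of *hrde-1* was left out, and 3 without wild-type replicate 1. The nuclear RNAi factors *nrde-4*, *nrde-2* and *nrde-1* and the methyltransferase genes *met-2*, *set-25* and *set-32* had log2 fold changes between -0.34 and 0.50 in *hrde-1* and did not pass. In *hrde-2* against wild-type 4 of the 26 were called higher and 1 lower, against 7.57% and 4.25% of all genes tested. Higher were *rde-11* (log2 fold change 1.33, SE 0.28, adjusted p = 0.00786), *simr-1*, which codes for a Tudor domain protein of germ granules (0.88, SE 0.18, adjusted p = 0.00849), *prg-1*, the piRNA Argonaute (0.73, SE 0.22, adjusted p = 0.0464), and *csr-1*, the Argonaute of expressed germline genes (0.58, SE 0.17, adjusted p = 0.0426). Lower was *hrde-2* (-1.25, SE 0.27, adjusted p = 0.0104). The number called higher was 2 when wild-type replicate 3, replicate 2 or 3 of *hrde-1*, or replicate 1 or 2 of *hrde-2* was left out. The number called lower was 0 without *hrde-2* replicate 1 or 2 and 3 without wild-type replicate 1.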

How the data were processed

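Single-end reads of polyadenylated RNA were trimmed by the authors with Trimmomatic 0.39, aligned with HISAT2 2.2.1 to *C. elegans* release WS258 and counted per gene with featureCounts (Subread 2.0.1). The deposited values are raw counts per gene over exons. Per the file headers, strand was ignored, and multi-mapping reads and those shared by overlapping genes were dropped, so that antisense reads were added and overlapping or near-identical genes lost reads. Of the 31106 gene identifiers, 30911 were found in Ensembl's WBcel235 annotation, and 48 of the 52 genes had a symbol.

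Genotype and replicate number came from the sample titles. Counts were tested in R 4.3.3 with edgeR 4.0.16 (filterByExpr, TMM scaling, robust quasi-likelihood fit of all 9 libraries), and standard errors were derived from the F statistic. Ribosomal RNA genes remained in the library sizes. The biological coefficient of variation was 27.0%. Ratios against 1 to 3 counts carry exact binomial 95% intervals. Alternatives were DESeq2 1.42.0, other scalings, no filter, a replicate block, other limits of the rule, thinning to 5801326 counts and leaving out each library. The genes, the lists and the tests were chosen with earlier results of these data known. Genes were named by a rule: highest counts in *hrde-1*, highest and lowest in *hrde-2*, gene-class names, calls between mutants, neighbours and limits. Promoter motifs were not searched.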

Additional observations from a re-analysis of the deposited data

How the results depend on the processing

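The number of genes that met the rule, 52, became 34 with limits set at 0.5 CPM for wild-type libraries and 1 CPM for *hrde-1* libraries (31 of the 52 met them), 25 with a wild-type limit of 3 counts, 4 with a limit of 0, 15 with an *hrde-1* limit of 20 counts, and 33 as the median of 9 random thinnings of all libraries to the smallest total, with 13 to 21 of the 52 kept in a draw. Leaving out a library gave 54 to 111. Which genes near the limits met the rule thus changed with depth and scaling.

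Of the genes called in *hrde-2* against wild-type, 23 of 29 kept the call under every alternative, and of those called between the mutants 6 of 21 did. No call changed direction. At an adjusted p under 0.01, 1 gene was called higher and 8 lower than in *hrde-1*. Leaving out a library gave 0 to 11 higher and 6 to 17 lower than in *hrde-1*, 25 to 29 higher than in wild-type, and 26 to 29 genes with at least 10 counts in every *hrde-2* library. Of the pathway genes, DESeq2 called 1 higher in *hrde-1*. At an adjusted p under 0.01, 0 were called lower in *hrde-1*, 2 higher and 0 lower in *hrde-2* against wild-type, and 0 lower in *hrde-2* against *hrde-1*. Leaving out a library gave 0 to 1 higher and 0 to 3 lower in *hrde-1*, 2 to 5 higher and 0 to 3 lower in *hrde-2*, and 1 to 4 higher and 0 to 1 lower between the mutants. The causes were not tested.

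With the replicate number as a block, 28 genes were called higher in *hrde-2* against wild-type, and 3 higher and 13 lower than in *hrde-1*. Pairing by number was not seen across all genotypes. Deviations from the group means of same-numbered libraries correlated with r from -0.275 to 0.299, over 0.1 in 4 of 9 pairs. Of the 9 libraries, 5 correlated best with a library of their own number. Between *hrde-1* and *hrde-2* the same-numbered pairs had r of 0.189, 0.099 and 0.299 for replicates 1, 2 and 3. Each was the highest r of that *hrde-1* library with an *hrde-2* library. The main fit left this possible pairing out.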

Other observations

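The same limits applied to *hrde-2* gave more genes. At most 5 counts in each wild-type library and at least 10 in each *hrde-2* library were found for 261 genes, or 249 without the families and genes left out above, against 58 and 52 for *hrde-1*. The limits in the opposite direction, at least 10 counts in each wild-type library and at most 5 in each *hrde-1* library, were met by 6 genes. These numbers were not corrected for depth. A count of 10 stood for 0.906 to 1.2 CPM in *hrde-1* libraries, 0.827 to 1.07 CPM in *hrde-2* and 0.859 to 1.79 CPM in wild-type.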
